A study of Mus musculus with 16 samples.

Results

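The autophagy and mitophagy machinery comprises the genes whose products start, build, load and regulate autophagosomes and those that mark mitochondria for them. A list of 40 such genes was used, matched by symbol, and all 40 were found among the 27288 genes of the deposited table. Liver RNA of C57BL/6 mice, 8 to 10 weeks old, was sequenced in 4 groups of 4 libraries. The groups were KO mice given ethanol, WT mice given ethanol, KO mice under control treatment and WT mice under control treatment, where KO stands for a knockout of Dnm1l restricted to the liver and WT for the paired wild type, all handled in the Gao-Binge alcohol model. DRP1, encoded by Dnm1l, is the GTPase that divides mitochondria, and the Gao-Binge model ends a period of ethanol feeding with a single large dose of ethanol. The labels name neither the driver of the deletion nor the exons removed. They do not say that each library came from its own mouse, so the spread that p-values measure may be technical.

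Autophagy encloses cytoplasm in a double membrane and delivers it to lysosomes. The ULK kinase complex and a phosphatidylinositol 3-kinase complex start the membrane, lipid-transfer proteins extend it, and a ubiquitin-like conjugation system attaches proteins of the ATG8 family, LC3 and GABARAP, to it. Cargo receptors such as p62 bind cargo and ATG8 proteins together, and in mitophagy the cargo is a mitochondrion, tagged through the kinase PINK1 or held by receptors on its membranes. In liver, autophagy degrades fat droplets, damaged mitochondria and protein aggregates, and TFEB and TFE3 are the transcription factors that raise autophagy and lysosome genes. All values below are amounts of RNA, which do not measure how fast autophagosomes form or are degraded.

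Each library held 11425136 to 13864862 reads assigned to genes, and 13256 genes reached a 16-library mean of 10 normalised reads and were tested. All 40 members passed this filter. Dnm1l averaged 803 ± 99.3 normalised reads in KO ethanol libraries and 743 ± 38.4 in WT ethanol libraries (exact permutation p = 0.343, two-sided), and 642 ± 72.7 in KO control libraries and 663 ± 56.1 in WT control libraries (exact permutation p = 0.571; SD, n = 4, smallest possible p 0.0286). A total over a whole gene can include reads from exons that were not deleted, so these values give no check of the genotype labels, and KO means labelled as knockout throughout. With ethanol, Dnm1l was 1.25-fold higher in KO, without overlap between the groups (limma adjusted p = 0.0421). In WT its ethanol fold was 1.12, with overlap (limma adjusted p = 0.229). KO ethanol library 1 carried pancreas transcripts, with a summed level of 6052 for 4 pancreas markers against 85.5 to 308 in the other libraries. KO ethanol library 4 carried blood and fat transcripts, with 5020 for 3 red cell markers against 965 to 2498 elsewhere and 160 for 3 fat markers against 0.792 to 69.2. The fat markers Adipoq and Plin1 were detected in KO ethanol libraries 1 and 4 alone. Their values were 9.84 and 5.90 in library 1 and 18.3 and 21.2 in library 4. All 8 hepatocyte markers were detected in every group.

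The upstream sequences of Ulk2, Atg101 and Sqstm1 are shown because these were the 3 members called different with ethanol in both genotypes, the first pair lower and the last higher. Each is the 250 bases before the gene's start in the RefSeq table for GRCm38.p6, written 5′ to 3′ on the strand of the gene. Capitals mark a match to TGACNNNGC, the core of the element bound by the antioxidant factor NRF2. The stretches are chr11:61855093-61855342 on the minus strand, chr15:101284051-101284300 on the plus strand and chr11:50210821-50211070 on the minus strand.
Ulk2: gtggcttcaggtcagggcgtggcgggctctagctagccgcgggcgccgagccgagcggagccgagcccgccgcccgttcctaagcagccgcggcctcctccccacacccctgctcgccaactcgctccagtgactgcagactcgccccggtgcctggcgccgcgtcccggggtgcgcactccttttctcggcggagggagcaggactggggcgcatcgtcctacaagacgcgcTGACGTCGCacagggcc
Atg101: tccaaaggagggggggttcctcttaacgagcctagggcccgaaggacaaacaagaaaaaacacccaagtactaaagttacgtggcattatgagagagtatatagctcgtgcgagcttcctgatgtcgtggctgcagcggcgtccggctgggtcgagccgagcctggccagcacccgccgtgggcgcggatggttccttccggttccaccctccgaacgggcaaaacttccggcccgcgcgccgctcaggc
Sqstm1: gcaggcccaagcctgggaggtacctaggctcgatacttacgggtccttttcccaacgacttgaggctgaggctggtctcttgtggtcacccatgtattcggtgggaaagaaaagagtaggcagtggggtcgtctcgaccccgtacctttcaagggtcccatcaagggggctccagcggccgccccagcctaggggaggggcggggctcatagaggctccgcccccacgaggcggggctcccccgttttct
The match in Ulk2 spans positions 234 to 242 of its window, and the windows of Atg101 and Sqstm1 held none of the 4 motifs searched. The search covered both strands of 300 bases, 250 before and 50 after the start, for the 33 members with such a window (39 windows in all). CACGTG, the E-box core recognised by TFEB and TFE3, was found for 5 members (Atg14, Atg3, Atg5, Atg7 and Bnip3). It lay in 12.8% of the 39 member windows, against 7.15% of all 32851 windows. The longer form TCACGTGA, which contains CACGTG, was found in Atg3 alone, 2.56% of member windows against 0.974% of all windows. TGACNNNGC was found for Ulk2, Atg13, Map1lc3b and Tax1bp1, 10.3% of member windows against 12.4% of all windows. GTAAACA, the FOXO motif, was found for 0 of the 33 members, against 3.65% of all windows. A match describes letters in a window and does not show that a factor binds there. A window without a match does not show that the gene lacks the motif, because sequence outside the window was not searched.

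Per kilobase of annotated exon, members differed widely in level. Sqstm1, which encodes the cargo receptor p62, was the highest over the 16 libraries, with 3843 ± 692 normalised reads per kb in KO ethanol, 2997 ± 960.0 in WT ethanol, 2411 ± 349.8 in KO control and 1485 ± 191 in WT control libraries (SD, n = 4). Gabarapl1 and Gabarap, which encode ATG8 proteins, followed with means over the 16 libraries of 1597 and 1423 per kb, and their ranges over libraries overlapped. Next came Pink1 at 784, Phb2 at 529 and Nbr1 at 470.0 per kb, the genes of the mitophagy kinase, an inner-membrane mitophagy receptor and a cargo receptor related to p62. The lowest were Pik3r4 at 32.8, Atg4a at 30.7 and Tfeb at 20.0 per kb. Among the ATG8 genes, Map1lc3a had 392 per kb, Map1lc3b 126 and Gabarapl2 63.1. The length counts every annotated exon once, including exons that liver may not use. In normalised reads without a length, the median of the members' mean values was 625, against 194 over all genes tested.

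**Figure D1:**
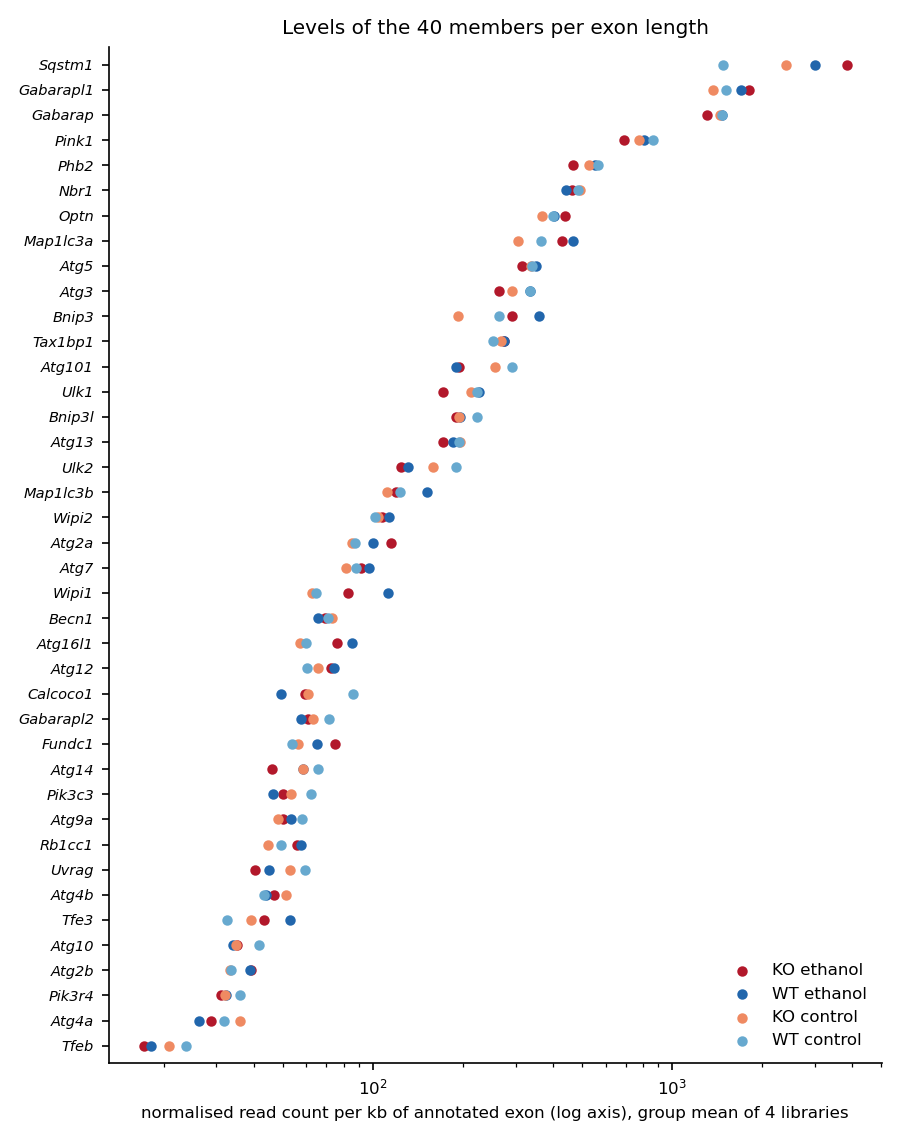
Level of each of the 40 members in normalised reads per kb of annotated exon (log axis), as the mean of 4 libraries for each group, ordered by the mean over 16 libraries. Tfeb lies at the bottom in every group, and Sqstm1 lies at the top in all but WT control, where Gabarapl1 lies above it.

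Between genotypes Sqstm1 was the 1 member called, higher in KO under control treatment. Under control treatment, limma called 1 of 40 members higher (2.5%) and 0 lower at an adjusted p under 0.05, against 11.6% of all genes tested, of which 6.40% were higher and 5.24% lower. At an unadjusted p under 0.05 there were 7 members. The share of all genes at that level was not counted. The 11.6% called is a share at a stricter threshold, so the 7 members cannot be compared with it. EdgeR and DESeq2 on the recovered reads called 3 members each, against 1525 and 1924 of all genes. On ethanol, limma called 0 of 40 members, against 9.88% of all genes (6.13% higher and 3.75% lower). EdgeR called 0 members and DESeq2 1, against 1281 and 1704 of all genes. At an unadjusted p under 0.05 there were 3 members, again without a count over all genes. The median log2 fold change of the members was -0.13 under control treatment and -0.05 on ethanol, against -0.01 and -0.02 over all genes. The 95% interval of the fold lay within 1.5-fold in either direction for 34 members under control treatment (85.0%, against 48.1% of all genes) and for 33 on ethanol (82.5%, against 49.7%). Within 2-fold it lay for 39 and 40 members, against 77.2% and 78.2% of all genes. Over the 40 members the folds ran from 0.719 to 1.62 under control treatment and from 0.743 to 1.32 on ethanol. Intervals depend on level, and members had higher levels than the median gene.

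**Figure D2:**
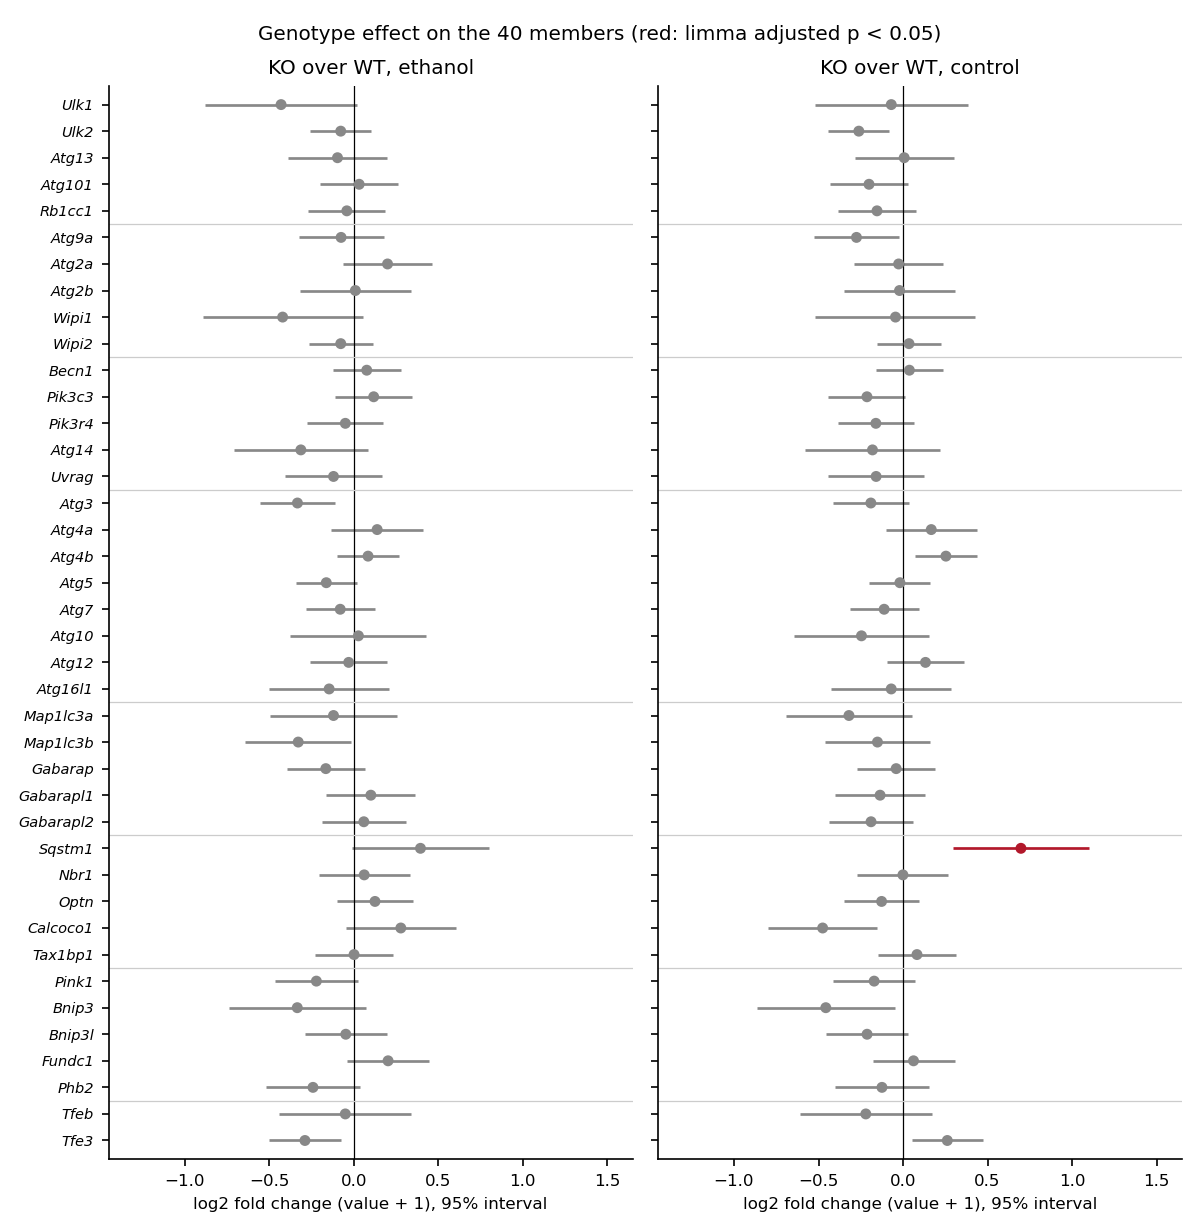
Log2 fold change of KO over WT on ethanol (left) and under control treatment (right) for the 40 members grouped by role, with 95% intervals from limma on log2(value + 1). Sqstm1 under control treatment is the 1 member past an adjusted p of 0.05 (red).

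Sqstm1 (ENSMUSG00000015837, chromosome 11, 50199366 to 50210827, minus strand, GRCm38) was 1.62-fold higher in KO than in WT libraries under control treatment. The KO control libraries 1 to 4 had 7609.8, 6992, 9731 and 8027 normalised reads, and the WT control libraries 5262, 4490.4, 5757 and 4419.7. Every KO value lay above every WT value (log2 fold change 0.70 ± 0.19 SE, limma adjusted p = 0.0255; 95% interval of the fold 1.23 to 2.14). On ethanol, KO libraries had 11476, 10459.6, 15454 and 14193 and WT libraries 6944, 8240.2, 10792 and 14253, with overlapping groups and a fold of 1.32 (interval 0.9944 to 1.74, limma adjusted p = 0.213). The control-treatment call was not kept without any 1 of KO control libraries 3 and 4 and WT control libraries 2 and 4 (adjusted p 0.0521 to 0.0794). The gene overlaps Mrnip on the opposite strand, and no source used here gives the strand setting, so reads of the pair cannot be told apart. The same holds for Atg4b and Thap4, Atg9a and Ankzf1, Atg2b and Gskip, Becn1 and Cntd1, and Map1lc3b and Zcchc14, which are pairs of protein-coding genes. Noncoding genes or pseudogenes lie opposite other members, among them Rb1cc1, Gabarapl1 and Uvrag. Of 10 macrophage markers, 7 were also higher in KO under control treatment and all 10 on ethanol, and none was at 0. Their summed level was 6088 to 7606 in KO ethanol, 1155 to 1684 in WT ethanol, 7138 to 11311 in KO control and 3044 to 6773 in WT control libraries. Their part in this and the following results was not tested, and in bulk tissue fewer cells of a type and less RNA per cell cannot be told apart.

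The other 6 members at an unadjusted p under 0.05 under control treatment were Ulk2, Calcoco1, Atg4b, Tfe3, Bnip3 and Atg9a. Ulk2, an initiating kinase, had 822, 1011, 949 and 1021 normalised reads in KO and 1152, 1095, 1081 and 1222 in WT libraries, which did not overlap (fold 0.834, limma adjusted p = 0.0565, DESeq2 adjusted p = 0.0277). Calcoco1, which encodes an ATG8-binding receptor for endoplasmic reticulum, had 363, 331, 361 and 338 in KO and 542, 598, 366 and 462 in WT libraries, again without overlap (fold 0.719, limma adjusted p = 0.0536). The KO values of Calcoco1 lay close together, while WT libraries 1 and 2 were far above WT library 3. Atg4b, a protease that trims ATG8 proteins, had 424, 436, 431 and 409.7 in KO and 325, 368, 332 and 405 in WT libraries (fold 1.19, limma adjusted p = 0.0661). Tfe3 had a fold of 1.20 with no overlap, and Bnip3 and Atg9a had folds of 0.729 and 0.826 with overlapping groups (limma adjusted p = 0.102, 0.139 and 0.151). In all, 7 members did not overlap between genotypes under control treatment, Sqstm1, Ulk2, Calcoco1, Atg4b, Tfe3, Uvrag and Gabarapl2, against 17.4% of all genes. Of the 40 members, 10 had a positive log2 fold change under control treatment (25.0%, against 48.7% of all genes), and 16 of 40 on ethanol (against 46.6% of all genes).

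On ethanol the members nearest to a call between genotypes were Atg3, Tfe3 and Map1lc3b. Atg3, the E2-like enzyme that attaches ATG8 proteins to lipid, had 877, 860.2, 807 and 795 normalised reads in KO and 982, 1027, 1216 and 994 in WT libraries. All 4 KO values were below all 4 WT values, at a fold of 0.794 (interval 0.680 to 0.927, limma adjusted p = 0.0563, DESeq2 adjusted p = 0.0316). Tfe3 had a fold of 0.819 and Map1lc3b, which encodes LC3B, 0.797, with overlapping groups (limma adjusted p = 0.0796 and 0.182). Besides Atg3, Wipi2 and Atg5 did not overlap, which makes 3 members against 15.7% of all genes. Their folds were 0.948 and 0.894 (limma adjusted p = 0.658 and 0.259). The count of members called was 2 without WT ethanol library 3 (Wipi1 and Tfe3), 1 without WT ethanol library 4 (Sqstm1) and 0 without any other 1 library.

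More members were called with ethanol than between genotypes. In KO mice limma called 8 of 40 (20.0%), 6 higher and 2 lower, against 19.2% of all genes, with 10.2% higher and 9.01% lower. In WT mice it called 11 of 40 (27.5%), 5 higher and 6 lower, against 38.0% of all genes, with 18.9% higher and 19.0% lower. Sqstm1, higher, and Ulk2 and Atg101, lower, were called in both genotypes, 37.5% of the KO calls and 27.3% of the WT calls. The ethanol and control values did not overlap for 10 members in KO, against 23.0% of all genes, and for 7 in WT, against 35.1%. The median log2 fold change of the members was -0.04 in KO and 0.001 in WT, against -0.01 over all genes in each. The interval lay within 1.5-fold for 27 members in KO (67.5%, against 41.9% of all genes) and for 25 in WT (62.5%, against 35.7%). Over the 4 comparisons of genotype and of ethanol, 16 members were called at least once and 24 never. The number of KO calls depended on single libraries. It was 5, 3 and 4 without KO ethanol library 1, 2 or 4, and 4 and 2 without KO control library 1 or 2. Without both KO ethanol libraries 1 and 4 it was 0, with log2 fold changes of 0.66 for Sqstm1, -0.36 for Ulk2 and -0.43 for Atg101, against 0.67, -0.35 and -0.39 with all libraries, and adjusted p from 0.0638 to 0.190 for those 8 members. The number of WT calls was 7 without WT ethanol library 2 and 8 to 11 without any other 1 library. With ethanol, 3 of 6 endothelial and 3 of 6 stellate markers were higher in each genotype, none lower. The endothelial sum was 1732 to 2210 in KO ethanol, 2004 to 2258 in WT ethanol, 1103 to 1721 in KO control and 1143 to 1541 in WT control libraries, and the stellate sum was 3114 to 3488 in KO ethanol, 3280 to 3683 in WT ethanol, 2101 to 2997 in KO control and 2256 to 2748 in WT control libraries. None of these markers was at 0. Of the macrophage markers 1 of 10 was lower with ethanol in KO and 9 in WT, and of 8 hepatocyte markers 2 were higher in KO and 4 in WT. The part of these cell types in the ethanol results was not tested.

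**Figure D3:**
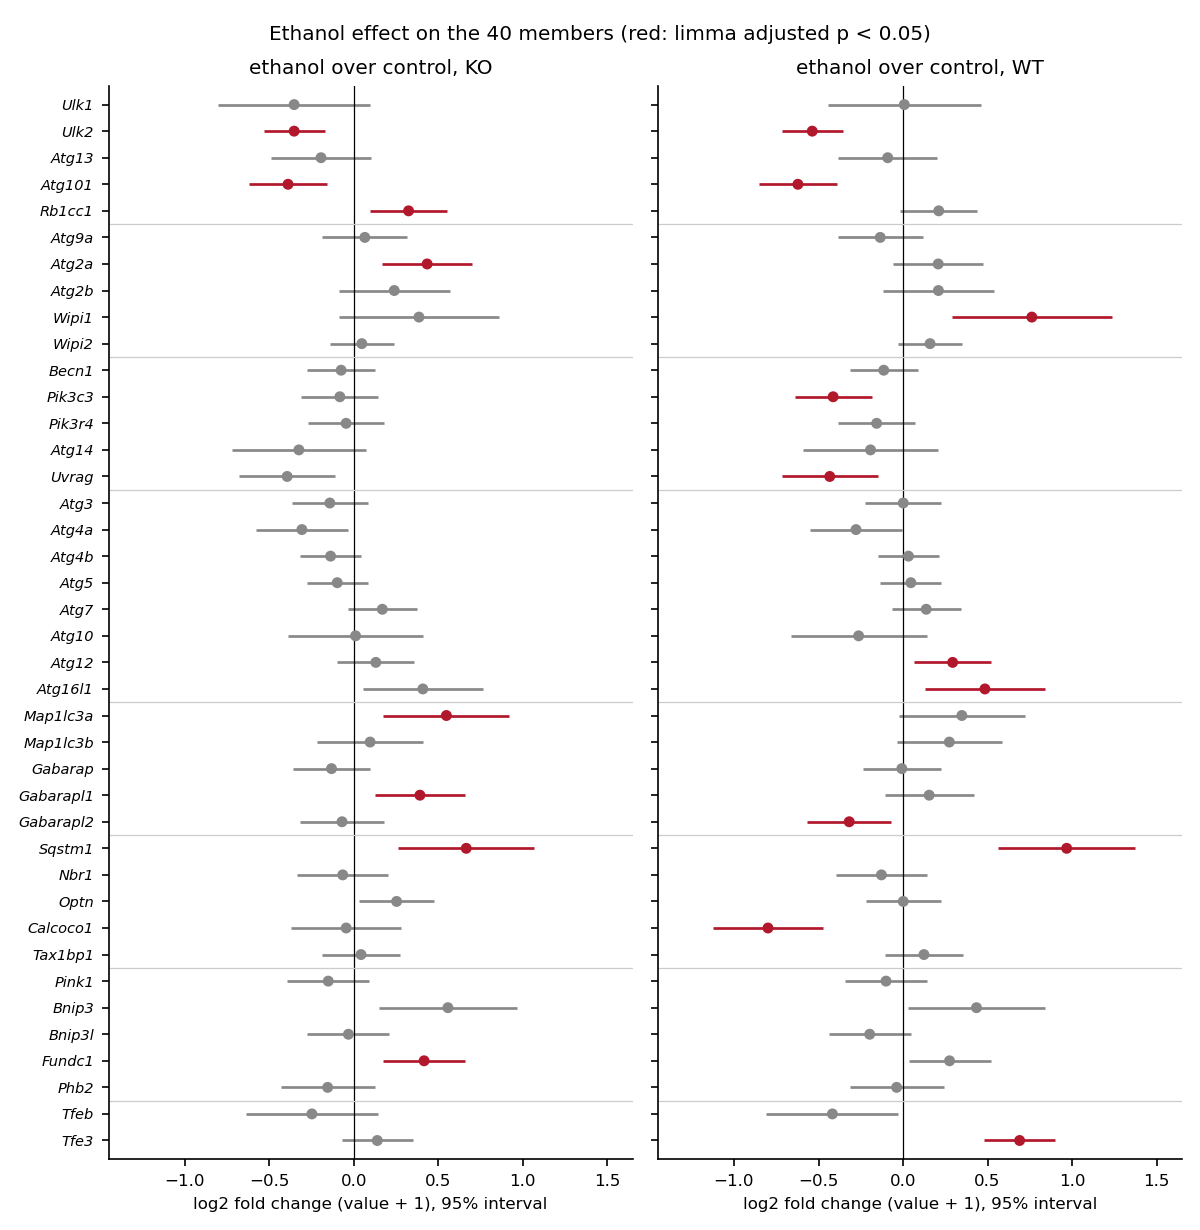
Log2 fold change of ethanol over control in KO (left) and WT (right) for the 40 members grouped by role, with 95% intervals from limma on log2(value + 1). Red marks the 8 members in KO and the 11 in WT past an adjusted p of 0.05.

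In the complex of ULK kinases, which starts autophagosome formation, 2 of 5 members were lower with ethanol in both genotypes, and 1 was higher in KO. Ulk2 (ENSMUSG00000004798, chromosome 11, 61775649 to 61855073, minus strand), whose upstream sequence is shown above, encodes 1 of the kinases of the complex. It had 729, 714, 760.2 and 766 normalised reads in KO ethanol and 822, 1011, 949 and 1021 in KO control libraries, a fold of 0.783 (log2 fold change -0.35 ± 0.09 SE, limma adjusted p = 0.00893). In WT, Ulk2 had 752, 799, 844 and 739 on ethanol and 1152, 1095, 1081 and 1222 under control treatment, a fold of 0.689 (log2 fold change -0.54 ± 0.09 SE, limma adjusted p = 0.000154). Every ethanol value was below every control value in both genotypes, and the ethanol values of the 2 genotypes overlapped. Atg101 (ENSMUSG00000037204, chromosome 15, 101284272 to 101290945, plus strand), which stabilises ATG13 in the complex, had 309.8, 298, 302 and 329 in KO ethanol and 485, 410.0, 341 and 399.8 in KO control libraries (log2 fold change -0.39 ± 0.11 SE, limma adjusted p = 0.0196). In WT it had 264, 323, 306 and 323 on ethanol and 523, 467, 453 and 429 under control treatment (log2 fold change -0.62 ± 0.11 SE, limma adjusted p = 0.000346). Neither genotype showed overlap, and KO control library 1 was the highest of its group. Leaving out any 1 of KO ethanol library 2 and KO control library 1 ended the KO call (adjusted p 0.0529 to 0.0624). Rb1cc1 (ENSMUSG00000025907, chromosome 1, 6206197 to 6276648, plus strand), which encodes the scaffold FIP200, had 803, 958, 725 and 793 in KO ethanol and 635, 570.0, 713 and 695 in KO control libraries (log2 fold change 0.32 ± 0.11 SE, limma adjusted p = 0.0449). The lowest ethanol value lay just above the highest control value, and the call was lost in 10 of 19 alternatives, among them without any 1 of KO ethanol libraries 1, 2 and 4 and KO control libraries 1 and 2 (adjusted p 0.0735 to 0.148). In WT, Rb1cc1 had a fold of 1.16 (limma adjusted p = 0.136). Ulk1, the other kinase, and Atg13 were not called in any comparison, with folds for ethanol of 0.783 in KO and 1.01 in WT for Ulk1 and 0.875 in KO and 0.939 in WT for Atg13.

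Of the 5 genes of lipid delivery and phosphoinositide binding, Atg2a was higher with ethanol in KO and Wipi1 in WT. Atg2a (ENSMUSG00000024773, chromosome 19, 6241668 to 6262335, plus strand), which encodes a protein that moves lipids into the growing membrane, had 876, 1026, 782 and 855 normalised reads in KO ethanol and 668, 575, 718 and 653 in KO control libraries. These did not overlap (log2 fold change 0.43 ± 0.13 SE, limma adjusted p = 0.0228), and the call was lost without any 1 of KO ethanol library 2 and KO control library 2 (adjusted p 0.0774 to 0.0803). In WT the fold of Atg2a was 1.16 (interval 0.961 to 1.39, limma adjusted p = 0.206). Wipi1 (ENSMUSG00000041895, chromosome 11, 109573331 to 109611967, minus strand), which binds the lipid made by the phosphatidylinositol 3-kinase, had 576, 630.4, 292 and 489 in WT ethanol and 299, 347, 242 and 249 in WT control libraries (log2 fold change 0.76 ± 0.22 SE, limma adjusted p = 0.0132). WT ethanol library 3 lay within the control range and the other ethanol libraries above it. In KO the fold of Wipi1 was 1.31 (interval 0.941 to 1.81, limma adjusted p = 0.238). Atg9a, Atg2b and Wipi2 had ethanol folds of 1.05, 1.18 and 1.03 in KO and 0.911, 1.16 and 1.12 in WT and were not called.

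In the class III phosphatidylinositol 3-kinase complex, all 5 members had folds below 1 for ethanol in both genotypes, and limma called 2, both in WT. Over all genes tested, 49.0% had a positive log2 fold change with ethanol in KO and 49.1% in WT. Of the 40 members, 19 had a positive one in KO and 21 in WT. Pik3c3 (ENSMUSG00000033628, chromosome 18, 30272747 to 30348126, plus strand), the lipid kinase itself, had 228, 221, 226 and 220.4 normalised reads in KO ethanol and 237, 234, 234 and 243 in KO control libraries, narrow groups that did not overlap, at a fold of 0.945 (interval 0.807 to 1.11, limma adjusted p = 0.628). In WT it had 183, 219, 188 and 240.1 on ethanol and 291, 287, 228 and 300.0 under control treatment (log2 fold change -0.41 ± 0.11 SE, limma adjusted p = 0.00638). WT control library 3 lay within the ethanol range. Uvrag (ENSMUSG00000035354, chromosome 7, 98885021 to 99141141, minus strand), a subunit that takes the kinase to endosomes, had 343, 408, 337 and 373 in KO ethanol and 457, 475, 491 and 493 in KO control libraries, with no overlap, and the fold of 0.761 missed the threshold (limma adjusted p = 0.0502, DESeq2 adjusted p = 0.0358). In WT it had 327, 311, 475 and 509 on ethanol and 502, 561, 542 and 537 under control treatment (log2 fold change -0.43 ± 0.13 SE, limma adjusted p = 0.0182). WT ethanol libraries 1 and 2 were far below the control range and libraries 3 and 4 just under it or within it, and without either of WT ethanol libraries 1 and 2 the call was lost (adjusted p 0.0671 to 0.0721). Becn1, Pik3r4 and Atg14, which encode the scaffold Beclin 1, the regulatory kinase VPS15 and the subunit specific to autophagy, had folds of 0.950, 0.970 and 0.799 in KO and 0.924, 0.897 and 0.875 in WT.

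Among the 8 conjugation enzymes, Atg12 and Atg16l1 were higher with ethanol in WT, and 0 were called in KO by limma, edgeR or DESeq2. In KO, 2 had an unadjusted limma p under 0.05, without a count over all genes at that level. The products of Atg12 and Atg16l1 join with ATG5 into the complex that directs ATG8 proteins to the membrane. Atg16l1 (ENSMUSG00000026289, chromosome 1, 87755870 to 87792428, plus strand) had 1015, 982, 650.2 and 634 normalised reads in WT ethanol and 533, 518, 592 and 655 in WT control libraries (log2 fold change 0.48 ± 0.17 SE, limma adjusted p = 0.0314). WT ethanol libraries 1 and 2 were above all control libraries, while 3 and 4 lay within their range. Without any 1 of WT ethanol libraries 1 and 2 and WT control libraries 1, 2 and 3 the call was lost (adjusted p 0.0502 to 0.109). Atg12 (ENSMUSG00000032905, chromosome 18, 46730144 to 46741580, minus strand) had 607, 580.3, 469 and 626 in WT ethanol and 441, 499, 474 and 439 in WT control libraries (log2 fold change 0.29 ± 0.11 SE, limma adjusted p = 0.0412). WT ethanol library 3 overlapped the controls, and the call was lost in 10 of 18 alternatives, among them without any 1 of WT ethanol libraries 1, 2 and 4 and WT control libraries 1, 3 and 4 (adjusted p 0.0625 to 0.110). In KO the folds of Atg16l1 and Atg12 were 1.33 and 1.10 (limma adjusted p = 0.0974 and 0.414). Atg7, the E1-like enzyme, had folds of 1.12 in KO and 1.10 in WT, and Atg5 0.935 and 1.03. Atg4a, a protease of ATG8 proteins, had 75.7, 70.5, 82.4 and 78.9 in KO ethanol and 106, 100.4, 88.4 and 87.3 in KO control libraries, without overlap and without a call (fold 0.809, limma adjusted p = 0.104). In WT its fold was 0.825 (limma adjusted p = 0.0976). Atg4b, Atg3 and Atg10, which encodes the enzyme that attaches ATG12 to ATG5, had ethanol folds of 0.910, 0.907 and 1.01 in KO and 1.02, 1.001 and 0.833 in WT.

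Of the 5 ATG8 genes, Gabarapl1 and Map1lc3a were higher with ethanol in KO, and Gabarapl2 was lower in WT. Gabarapl1 (ENSMUSG00000030161, chromosome 6, 129533160 to 129542346, plus strand) had 3396, 3961, 3433 and 3725 normalised reads in KO ethanol and 2596, 2681, 2859 and 2914 in KO control libraries, with no overlap (log2 fold change 0.39 ± 0.13 SE, limma adjusted p = 0.0369). In WT the groups overlapped, at 2565, 3461, 4118 and 3550.5 on ethanol and 3302, 2964, 2586 and 3339 under control treatment (fold 1.11, limma adjusted p = 0.353). The KO call was lost in 9 of 19 alternatives, among them without any 1 of KO ethanol libraries 1, 2, 3 and 4 and KO control libraries 1 and 2 (adjusted p 0.0502 to 0.103). Map1lc3a (ENSMUSG00000027602, chromosome 2, 155276297 to 155278073, plus strand), which encodes LC3A, had 536, 504, 481 and 498 in KO ethanol and 539, 377, 265 and 262 in KO control libraries (log2 fold change 0.55 ± 0.18 SE, limma adjusted p = 0.0385). KO control library 1 lay above all ethanol libraries and libraries 3 and 4 far below them, and the call was lost in 12 of 19 alternatives, among them without any 1 of KO ethanol libraries 1, 2, 3 and 4 and KO control libraries 2, 3 and 4 (adjusted p 0.0565 to 0.112). In WT, Map1lc3a had 638, 611, 497 and 466 on ethanol and 429, 407, 462 and 427 under control treatment, which did not overlap (fold 1.27, limma adjusted p = 0.132). Gabarapl2 (ENSMUSG00000031950, chromosome 8, 111940703 to 111953612, plus strand) had 143, 134, 128 and 129 in WT ethanol and 164, 167, 163 and 172 in WT control libraries (log2 fold change -0.32 ± 0.12 SE, limma adjusted p = 0.0427). No values overlapped, yet the call was lost in 8 of 18 alternatives, among them without any 1 of WT ethanol libraries 2, 3 and 4 and WT control libraries 1, 2, 3 and 4 (adjusted p 0.0673 to 0.0927). Map1lc3b and Gabarap had ethanol folds of 1.07 and 0.913 in KO and 1.21 and 0.995 in WT. The ATG8 genes are relatives, and whether short reads were shared between them was not examined.

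**Figure D4:**
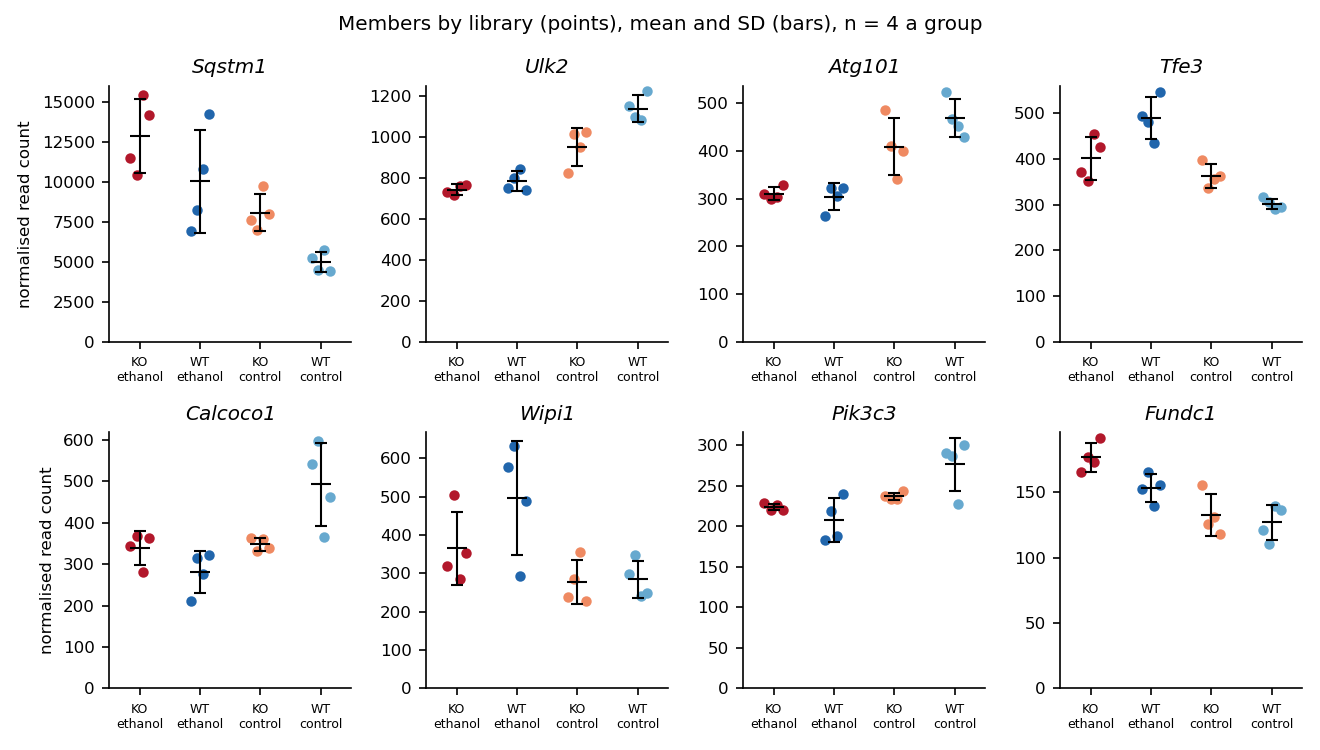
Normalised read counts of 8 members in each library (points), with the mean and SD of each group (bars, n = 4), for KO ethanol, WT ethanol, KO control and WT control from left to right. Sqstm1 lies higher and Ulk2 and Atg101 lower on ethanol in both genotypes, and Tfe3 and Calcoco1 are farther from their controls in WT than in KO.

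Of the 5 cargo receptor genes, Sqstm1 was higher with ethanol in both genotypes and Calcoco1 lower in WT, at the highest and the lowest ethanol fold of any member. Sqstm1 was 1.59-fold higher in KO (log2 fold change 0.67 ± 0.19 SE, limma adjusted p = 0.0221) and 1.96-fold higher in WT (log2 fold change 0.97 ± 0.19 SE, limma adjusted p = 0.000888), from the library values given above. No ethanol value overlapped a control value of the same genotype. In WT the ethanol values were widely spread, with library 4 the highest and library 1 the lowest. The KO call was lost without any 1 of KO ethanol libraries 3 and 4 and KO control libraries 1 and 2 (adjusted p 0.0546 to 0.0693). Calcoco1 (ENSMUSG00000023055, chromosome 15, 102706777 to 102722178, minus strand) had 344, 369, 280.3 and 364 normalised reads in KO ethanol and 363, 331, 361 and 338 in KO control libraries, overlapping groups with a fold of 0.970 (interval 0.775 to 1.21, limma adjusted p = 0.865). In WT, Calcoco1 had 211, 316, 277 and 323 on ethanol and 542, 598, 366 and 462 under control treatment, a fold of 0.575 without overlap (log2 fold change -0.80 ± 0.15 SE, limma adjusted p = 0.000722). Nbr1, Optn and Tax1bp1, receptors that bind ubiquitin-tagged cargo, had ethanol folds of 0.956, 1.19 and 1.03 in KO and 0.915, 1.001 and 1.09 in WT, and none was called.

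Of the 5 mitophagy genes, Fundc1 was called, higher with ethanol in KO. Fundc1 (ENSMUSG00000025040, chromosome X, 17556564 to 17572325, minus strand), a receptor of the outer mitochondrial membrane, had 165, 177, 173 and 192 normalised reads in KO ethanol and 155, 126, 131 and 118 in KO control libraries. All ethanol values were above all control values (log2 fold change 0.42 ± 0.11 SE, limma adjusted p = 0.0180), and the call was lost without any 1 of KO ethanol library 4 and KO control libraries 2 and 4 (adjusted p 0.0512 to 0.0575). In WT, Fundc1 had 152, 165, 139 and 156 on ethanol and 121, 110.3, 139.5 and 136 under control treatment, where 1 pair of values overlapped narrowly (fold 1.21, limma adjusted p = 0.0687). Bnip3, a receptor induced by low oxygen, had 766, 879, 542 and 452 in KO ethanol, 982, 883, 794 and 605 in WT ethanol, 399.9, 467, 521 and 360.2 in KO control and 509, 579, 625 and 678 in WT control libraries. Its ethanol folds were 1.47 in KO and 1.35 in WT (limma adjusted p = 0.0515 and 0.0858), and edgeR and DESeq2 called the KO difference. Libraries 1 and 2 were the highest in both ethanol groups. Pink1 had ethanol folds of 0.901 in KO and 0.933 in WT, Bnip3l 0.979 and 0.872, and Phb2 0.899 and 0.974. Between genotypes Pink1 had folds of 0.858 on ethanol and 0.888 under control treatment (intervals 0.725 to 1.02 and 0.750 to 1.05), and no mitophagy gene was called.

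Of the transcription factor genes, Tfe3 was higher with ethanol in WT and Tfeb was not called. Tfe3 (ENSMUSG00000000134, chromosome X, 7762560 to 7775202, plus strand) had 372, 352, 455 and 426 normalised reads in KO ethanol and 398, 336, 355 and 363 in KO control libraries, which overlapped (fold 1.10, interval 0.952 to 1.28, limma adjusted p = 0.343). In WT it had 494, 481, 436 and 547 on ethanol and 317, 305, 292 and 296 under control treatment, a 1.61-fold difference without overlap (log2 fold change 0.69 ± 0.10 SE, limma adjusted p = 6.89e-05). On ethanol all KO values but that of library 3 lay below the WT range, and under control treatment all KO values lay above it. Tfeb had 97.2 ± 7.65 in KO ethanol, 103 ± 27.1 in WT ethanol, 118 ± 28.7 in KO control and 135 ± 7.92 in WT control libraries (SD, n = 4). Its ethanol folds were 0.843 in KO and 0.748 in WT (limma adjusted p = 0.365 and 0.0853).

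The ethanol effects of the 2 genotypes were compared directly as KO minus WT. Limma called 0 of 40 members, against 0.347% of all genes (0.143% higher and 0.204% lower). EdgeR called 0 members and DESeq2 2, Calcoco1 and Tfe3, against 30 and 270 of all genes. An unadjusted p under 0.05 was found for 3 members, and the share of all genes at that level was not counted. For Calcoco1 the difference was 0.75 ± 0.22 on the log2 scale (SE, limma adjusted p = 0.136), from folds of 0.970 in KO and 0.575 in WT. For Tfe3 it was -0.55 ± 0.14 (limma adjusted p = 0.108), and this was called without WT ethanol library 3, the 1 omission that gave a call. For Pik3c3 it was 0.33 ± 0.15 (limma adjusted p = 0.359). For all members called in 1 genotype alone, a difference between the genotypes was therefore not shown by limma or edgeR. The interval of the difference lay within 2-fold for 38 of 40 members. The effects in the genotypes were set side by side and not correlated, and comparisons that use the same control libraries are not independent of each other.

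The ethanol libraries numbered 1 and 2 stood apart from those numbered 3 and 4 for many genes, members included. In both ethanol groups, and in the same direction, the pairs did not overlap for 11 members, namely Atg14, Atg16l1, Atg2a, Atg7, Bnip3, Gabarapl2, Map1lc3a, Map1lc3b, Pink1, Sqstm1 and Tax1bp1, 27.5% of the 40 against 20.8% of all genes tested. Within 1 group the pairs were apart for 24 members in KO (60.0%, against 50.1% of all genes) and 22 in WT (55.0%, against 51.2%). Sqstm1 was lower in libraries 1 and 2, with means of 10968 against 14824 in KO and 7592 against 12523 in WT, and the other 10 were higher there. Bnip3 had 822 against 497 in KO and 932 against 699.6 in WT, and Map1lc3b 1008 against 790.2 and 1344 against 932. The labels do not say what the numbers stand for. Between genotypes on ethanol, limma called 1 member with a term for these sets (Map1lc3b), 0 with libraries 1 and 2 alone and 1 with libraries 3 and 4 alone (Uvrag).

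A further list of 73 genes around the machinery, of which 70 were tested, showed larger ethanol effects in single genes than any member. With ethanol limma called 4 higher and 2 lower in KO (8.57%, background 19.2%) and 11 higher and 18 lower in WT (41.4%, background 38.0%). Retreg1, which encodes the endoplasmic reticulum autophagy receptor FAM134B, had 2908, 5836, 1824 and 2270.1 normalised reads in KO ethanol and 440.3, 495, 1276 and 594 in KO control libraries, a 4.53-fold difference (log2 fold change 2.18 ± 0.40 SE, limma adjusted p = 0.00145). In WT, Retreg1 had 6978, 7354, 2167 and 3732 on ethanol and 646, 719, 902 and 645 under control treatment, 6.26-fold (log2 fold change 2.65 ± 0.40 SE, limma adjusted p = 9.69e-05). No values overlapped in either genotype, and libraries 1 and 2 were the highest of both ethanol groups. Ddit4 and Sesn2 encode stress-induced inhibitors of the kinase complex MTORC1, which holds autophagy down. They were the 2 called higher with ethanol in WT among 22 listed genes that control MTORC1 and the kinase AMPK (9.09%, against 18.9% of all genes). Of the same 22 genes 9 were lower in WT (40.9%, against 19.0%), and in KO 1 was higher and 1 lower. Ddit4 had 408, 719, 183 and 197 in KO ethanol and 194, 182, 88.4 and 85.5 in KO control libraries, with overlap (fold 2.50, limma adjusted p = 0.0869). In WT, Ddit4 had 903, 1279, 203 and 1093 on ethanol and 47.3, 25.8, 59.0 and 32.2 under control treatment, 17.8-fold (log2 fold change 4.15, interval of the fold 8.25 to 38.4, limma adjusted p = 2.02e-05). Without WT ethanol library 3, the lowest of its group, this log2 fold change was 4.75. The difference of its effects, KO minus WT, was -2.83 ± 0.74 on the log2 scale (limma adjusted p = 0.109). Under control treatment Ddit4 was 3.21-fold higher in KO than in WT (limma adjusted p = 0.0464), and this call was lost in 12 of 18 alternatives, among them edgeR (adjusted p = 0.0585) and the omission of any 1 of the 8 libraries (adjusted p 0.0501 to 0.118). Sesn2 had an ethanol fold of 2.09 in KO (limma adjusted p = 0.0631) and was 4.45-fold higher in WT (limma adjusted p = 0.000427). WT ethanol library 3 was the lowest of its group for Retreg1 and Sesn2 as well.

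Genes lower with ethanol in WT included Deptor, which encodes an MTOR-binding inhibitor, Foxo3, a transcription factor of autophagy genes, and fusion genes. Deptor had 2773, 2779, 3126 and 2936 normalised reads in WT ethanol and 4750.5, 4377, 4044 and 5173 in WT control libraries, with no overlap (log2 fold change -0.66 ± 0.11 SE, limma adjusted p = 0.000181). Foxo3 had a fold of 0.608 (limma adjusted p = 0.00326), also without overlap. Of 13 genes of fusion between autophagosome and lysosome, 4 were lower in WT (30.8%, against 19.0% of all genes tested) and none higher, among them Snap29, a SNARE protein gene, and Vps11, a tethering subunit, at folds of 0.627 and 0.715 (limma adjusted p = 0.000249 and 0.000607). In KO 1 fusion gene was lower, Vps16, at a fold of 0.786 (limma adjusted p = 0.0143). The KO folds of Deptor, Foxo3, Snap29 and Vps11 were 0.845, 0.772, 0.906 and 0.885, and none was called. Bcl2l13 and Fundc2, genes of mitochondrial outer-membrane proteins, were higher in both genotypes, with folds of 1.41 and 1.34 in KO and 1.29 and 1.56 in WT. Without KO ethanol libraries 1 and 4 together, the KO calls of Vps16, Bcl2l13 and Fundc2 were lost (adjusted p 0.196, 0.0708 and 0.153). The Fundc2 call in KO was lost without any 1 of KO ethanol libraries 2 and 4 and KO control libraries 1 and 2 (adjusted p 0.0565 to 0.0743).

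Between genotypes 7 of these 70 genes were called under control treatment, 4 higher and 3 lower in KO (10.0%, background 11.6%), and 5 on ethanol, 4 higher and 1 lower (7.14%, background 9.88%). Rragd, a GTPase gene that acts in recruiting MTORC1 to lysosomes, and Vps18, a tethering subunit gene, were higher in KO under both treatments. Rragd had 83.6, 157, 122 and 100.1 normalised reads in KO ethanol and 31.9, 41.9, 38.1 and 15.6 in WT ethanol libraries, 3.67-fold (log2 fold change 1.88 ± 0.46 SE, limma adjusted p = 0.0145). Under control treatment it had 53.9, 58.7, 24.9 and 199.9 in KO and 11.8, 20.9, 23.8 and 19.7 in WT libraries, 3.30-fold (log2 fold change 1.72 ± 0.46 SE, limma adjusted p = 0.0221). KO control library 4 was far above the rest of its group, and without any 1 of KO control library 4 and WT control libraries 1 and 4 the control-treatment call was lost (adjusted p 0.0501 to 0.0699). Vps18 had 280.3, 319, 287 and 253 in KO ethanol, 183, 216, 216 and 209 in WT ethanol, 252, 240.5, 281 and 248 in KO control and 222, 193, 180.4 and 149 in WT control libraries. Its fold was 1.38 on ethanol and 1.38 under control treatment, without overlap (limma adjusted p = 0.0191 and 0.0180). The ethanol call of Vps18 was lost without any 1 of KO ethanol libraries 2 and 3 and WT ethanol library 1 (adjusted p 0.0507 to 0.0668), and the control-treatment call without WT control library 4 (adjusted p 0.0692). Without KO ethanol libraries 1 and 4 together, the ethanol log2 fold changes were 2.17 for Rragd and 0.56 for Vps18, neither of them called (adjusted p 0.0547 and 0.0555). Deptor was lower in KO under control treatment, with 2804, 3551, 2471 and 2769 in KO and 4750.5, 4377, 4044 and 5173 in WT libraries (fold 0.629, limma adjusted p = 0.000610). Every KO value was below every WT value, and the call was kept without any 1 library of either group.

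**Figure D5:**
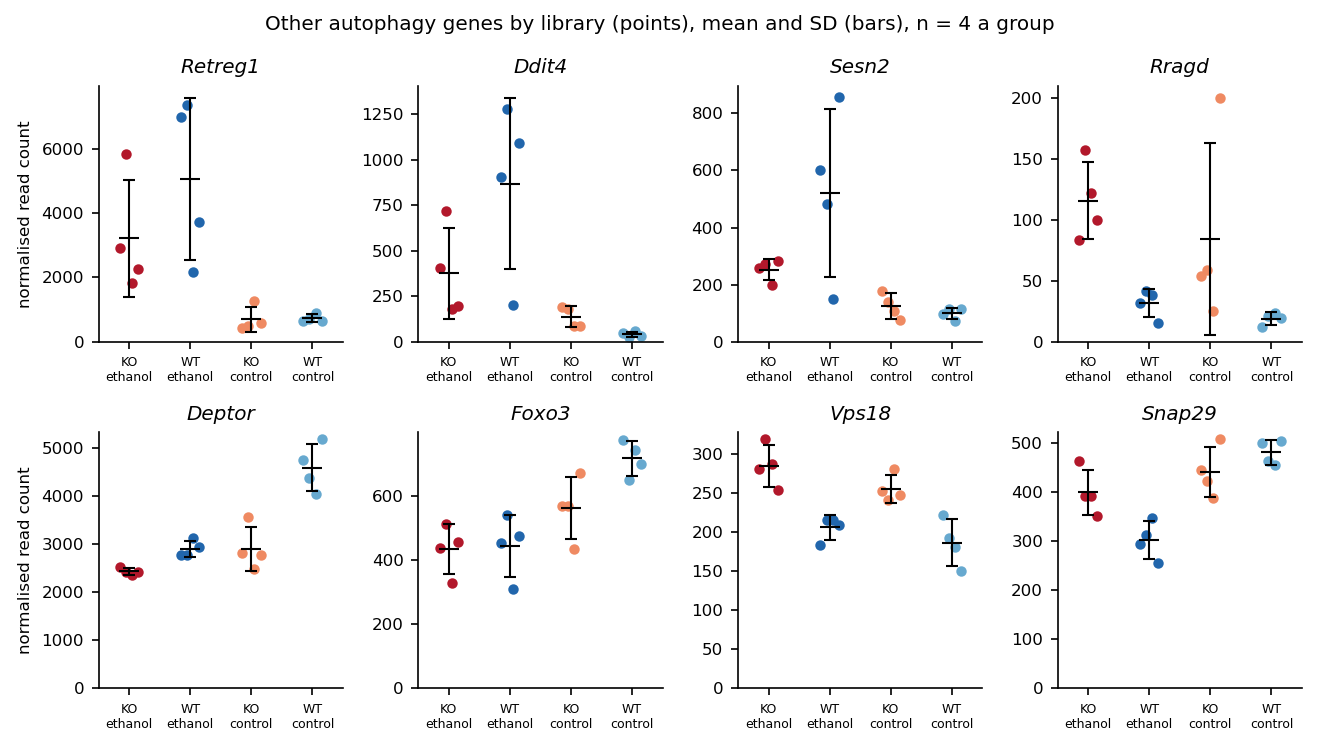
Normalised read counts of 8 further autophagy genes in each library (points), with the mean and SD of each group (bars, n = 4), for KO ethanol, WT ethanol, KO control and WT control from left to right. Retreg1 lies higher on ethanol in both genotypes, Rragd and Vps18 lie higher in KO under both treatments, and Deptor is highest in WT control.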

How the data were processed

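Livers were snap frozen, RNA was extracted with Trizol and single reads of 75 bases were sequenced, per the labels' protocols. The submitters' processing notes name HISAT2 2.1.0.13, HTSeq, edgeR and the build GRCm38. No source used here gives the annotation release, strand setting or size-factor tool. The deposited values are a signal per gene, read counts that the authors divided by 1 factor per library (0.814 to 1.26). In each library 100% of values were whole multiples of 1 read within 0.01, so whole reads were recovered. Median-of-ratios factors computed from the recovered reads matched the factors of the deposited values in each library. Both were 1.0167 in KO ethanol library 1 and 0.8140 in WT ethanol library 1. Replicates differed by more than sampling noise (mean chi-square per gene 10.9 to 118) and each counted as 1 sample. Of 27288 identifiers, 27242 had a symbol.

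Limma 3.58.1 in R 4.3.3 was fitted to log2(value + 1) for the 13256 genes reaching a 16-library mean of 10, with 4 group means, a mean-variance trend and 5 contrasts. A call is a Benjamini-Hochberg adjusted p below 0.05 across those genes. Folds are of value + 1 and so understate changes of low genes. EdgeR 4.0.16 (quasi-likelihood) and DESeq2 1.42.0 on the recovered reads called 1525 and 1924 genes between genotypes under control treatment, 1281 and 1704 on ethanol, 2679 and 3028 with ethanol in KO and 5013 and 5150 in WT. On simulated counts of the genotype comparison on ethanol (13157 genes), 15 of 50 genes changed 1.5-fold, 41 of 50 changed 0.5-fold, 41 of 50 changed 2-fold and 49 of 50 changed 3-fold were called, with 3 false calls. The changed genes were drawn from those with a mean above 50. Libraries were simulated independently, without the library sets or the pancreas, blood and fat transcripts seen here, so these rates need not hold for the real libraries.

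Members and gene lists were chosen with earlier results of these data known. All members could be named, with values by library for members called without overlap between groups, and of the further genes up to 3 called per list and comparison by smallest p; values by library of other genes were chosen after they were seen. Same-numbered libraries deviated together between the ethanol groups (correlation across genes 0.102 to 0.246, every pair above 0.1) and not in the other comparisons. On ethanol 3 of 4 correlated best with their own number. The main fit had no term for the numbers, so its p-values are unpaired, and the replicate block was an alternative. Alternatives were other pseudocounts, filters and factors, fits without the trend or of the compared groups alone, the replicate block, the other tools and leaving out each library. Chosen after seeing the data were the omission of KO ethanol libraries 1 and 4 and the fits by ethanol library set.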

Additional observations from a re-analysis of the deposited data

Results flagged for a closer look

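In 3 of the 160 groups of 4 values (40 members in 4 groups), 1 library lay far from the other 3 by Dixon's ratio, where chance gives about 1 in 20. Atg13, which encodes a subunit of the ULK complex, had 636 normalised reads in KO ethanol library 4, against 777 to 792 in the other KO ethanol libraries. Atg13 also had 1025 in KO control library 3, against 788 to 818 in the others of that group. Tfeb had 146 in WT control library 4, against 129 to 132 in the others. Atg13 and Tfeb were not called in any comparison, so no call rests on these values.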

How the results depend on the processing

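Of the 20 calls of members, 7 were kept under every alternative and 0 changed direction. The 7 are the WT ethanol results of Ulk2, Atg101, Wipi1, Pik3c3, Sqstm1, Calcoco1 and Tfe3, and the other 13 were lost under 1 or more. The calls did not all face the same alternatives. Ethanol calls faced 18 in WT and 19 in KO, where the omission of KO ethanol libraries 1 and 4 was added. The KO ethanol call of Ulk2 was lost under that omission alone. Fits by ethanol library set were made for the genotype comparison on ethanol only, so the WT ethanol calls did not face them. With each library left out in turn, the number of members called was 0 to 2 between genotypes under control treatment, 0 to 2 on ethanol, 2 to 8 for ethanol in KO, 7 to 11 for ethanol in WT and 0 to 1 for the difference of the ethanol effects. The lowest WT count, 7, was without WT ethanol library 2. EdgeR and DESeq2 gave 3 and 3 between genotypes under control treatment in place of 1. On ethanol, where limma gave 0, DESeq2, TMM factors, the term for library sets and libraries 3 and 4 alone gave 1 each. DESeq2 gave 2 for the difference of the effects in place of 0. For ethanol in KO the count was 8 with all libraries, 5 with no filter, 5 with no trend and 0 without KO ethanol libraries 1 and 4, a fit with fewer samples. For the other changes the cause was not tested. With the replicate block the counts were 1, 0, 8, 10 and 0 in the same order, against 1, 0, 8, 11 and 0 without it. Between genotypes on ethanol every same-numbered pair correlated above 0.1, but library 4 correlated better with another number (0.179) than with its own (0.102), so the pairing is weakly marked. There the block changed no call of a member. With each library left out the Dnm1l log2 fold change between genotypes under control treatment was -0.11 to 0.033, with the changed sign without KO control library 3, and it was not called in any of these fits. Over all genes, the count between genotypes on ethanol was 489 without KO ethanol libraries 1 and 4 and 453 with libraries 3 and 4 alone, against 1310. It was 845 without KO ethanol library 3 and 862 without WT ethanol library 1, and under control treatment 923 without WT control library 4, against 1544. The count for ethanol in KO was 1034 without KO ethanol libraries 1 and 4, against 2543. That for the difference of the effects was 16 with no trend, 24 with the replicate block, 8 to 215 with 1 library left out (215 without WT ethanol library 3), 30 by edgeR, 270.0 by DESeq2 and 0 without KO ethanol libraries 1 and 4, against 46. With 4 libraries a group the median SE of a member's log2 fold change was 0.12.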
